A study of Mus musculus with 6 samples.

Results

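The ribosomal protein genes of the mouse were followed in the intermediate and the outer interzone, the layers of a forming synovial joint. The members are every gene whose name on the array has the form Rpl or Rps followed by a number, with an optional a, l, x or y ending, and the stalk genes Rplp0, Rplp1 and Rplp2. This rule uses names and no measured value. It found 82 genes, 51 of the large and 31 of the small subunit, on 182 of 55681 probes. Of these, 80 genes (49 large, 31 small) could be tested, among 17926 genes tested in all, and the probe used for each was well above background on all 6 arrays. Rpl3l and Rpl10l were well above background on 0 arrays and were not tested. The gene named Rps4y2 on the array is Rps4l in RefSeq, and Rps3a is Rps3a1.

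The mice were embryos of 15.5 days of gestation. Total RNA of the intermediate layer was measured in 3 samples and that of the outer layer in 3, and 1 embryo gave each replicate. No treatment or mutant allele is named for either group, and strain, sex, joint and the way the layers were separated are not given in the sources used here. Cy3-labelled cRNA of each sample was hybridised to a one-colour Agilent array.

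A ribosome consists of a small subunit, which reads the mRNA, and a large subunit, which joins amino acids, and each is built from ribosomal RNA and 1 copy of most ribosomal proteins. Their genes are active in every growing cell, and their mRNAs usually begin with a run of pyrimidines, the 5′ terminal oligopyrimidine tract, through which mTOR signalling controls their translation. A few genes are paralogs with restricted or inducible use: Rpl3l in striated muscle, Rpl10l and Rpl39l in testis, and Rps27l as a target of p53. In the growing skeleton, loss of Rpl38 disturbs the patterning of the vertebrae.

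The starts of 8 members are shown, 5 that hold the letters CTTTCC near the start and 3 that do not. Ordinary genes and paralogs are in both sets. Each line holds 50 bases of the gene's strand, from 20 bases before to 30 bases after the annotated start (RefSeq, GRCm38.p6), and capitals mark CTTTCC, a pyrimidine motif of the kind these mRNAs begin with.
Rpl35: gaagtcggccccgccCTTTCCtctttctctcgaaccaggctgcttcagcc
Rpl28: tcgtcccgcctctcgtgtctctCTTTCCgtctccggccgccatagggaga
Rpl38: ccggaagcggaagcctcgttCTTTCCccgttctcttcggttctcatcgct
Rps27: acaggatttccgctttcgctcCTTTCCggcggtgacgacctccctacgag
Rps27l: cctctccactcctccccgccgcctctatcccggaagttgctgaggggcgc
Rpl39l: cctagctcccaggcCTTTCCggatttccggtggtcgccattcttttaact
Rpl22l1: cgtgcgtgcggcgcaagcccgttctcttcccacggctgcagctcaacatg
Rps2: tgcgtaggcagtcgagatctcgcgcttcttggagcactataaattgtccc
The windows lie at chr2:39005102-39005151 (minus strand) for Rpl35, chr7:4792945-4792994 (plus) for Rpl28 and chr11:114668560-114668609 (plus) for Rpl38. Those of Rps27, Rps27l and Rpl22l1 lie at chr3:90213619-90213668 (minus), chr9:66946066-66946115 (plus) and chr3:28805488-28805537 (plus). Those of Rpl39l and Rps2 lie at chr16:10170208-10170257 and chr17:24720043-24720092 (both plus). Rpl35, Rpl28, Rpl38, Rps27 and the paralog Rpl39l carry the motif close to their start, and the windows of the paralogs Rps27l and Rpl22l1 and of Rps2 do not hold these letters. Other runs of pyrimidines, as in the window of Rpl22l1, are not marked. The windows were chosen as examples and are no tally of paralogs against other members.

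RefSeq promoters were matched for 61 of the 82 members. On the gene's strand, CTTTCC stood within the 60 bases from 10 before to 50 after the start in 15 of the 61 (24.6%), so most members lacked it there, against 2.59% of all 27025 promoters in the table and 2.34% of the tested genes with a promoter. Counting both strands, the shares were 26.2% of members and 5.30% of all promoters. A second motif, CCGGAAG, the core bound by ETS-family factors, stood on either strand of the full 300-base window in 24 members (39.3%), against 9.12% of all promoters and 17.3% of those of tested genes. A match is a description of these letters. Among tested members, the 15 with CTTTCC had a median difference between the layers of 0.28 (log2, range -0.020 to 0.37), and the 44 without had 0.29 (range -0.31 to 0.50), so the members with and without the motif lay at nearly the same place.

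Levels below are log2 processed signal minus the 75th percentile of the same array, a scale on which 1 unit is a factor of 2, and differences are outer minus intermediate. They were tested with limma across all 17926 genes, with Benjamini-Hochberg adjustment and a threshold of 0.05. The arrays differed in brightness: 35.6% of spots were well above background on outer replicate 1, the dimmest array, and up to 53.4% on the others. No spot was saturated. Of the member spots, 95.8% to 97.4% were well above background on each array. Gdf5, the defining marker of the interzone, was well above background on all 6 arrays and differed by -0.0034. Of 6 genes listed as interzone markers, Gdf5 among them, 4 were called higher in the outer samples and 0 lower (median difference 1.52). The 4 were Erg, Wnt4, Col2a1 and Sox9, and Col2a1 is counted again in the cartilage list. Wnt9a, like Gdf5, was not called (difference 0.16, limma adjusted p = 0.806). Cartilage markers were higher in the outer samples (5 of 6 called, median difference 3.17, mean level of the list 4.37 to 4.83 against 1.28 to 1.70). Leukocyte markers were lower there (7 of 8 called, median difference -3.39, mean level -1.59 to 0.10 against 1.89 to 2.74). Of 5 endothelial markers, 4 were called lower there (list median -2.40, mean level -0.50 to -0.12 against 1.30 to 1.81). The other one, Kdr, lay in the opposite direction (difference 0.82, limma adjusted p = 0.231). Of 3 erythroid and 5 skeletal muscle markers measured, 0 were called, but 0 lay above 0, with medians of -1.49 and -0.80. Their mean levels varied widely between replicates. The erythroid list ran from 3.16 to 7.38 in the outer and from 6.56 to 8.19 in the intermediate samples. The muscle list ran from -3.30 to 0.55 and from -1.49 to 1.66. The part of these cell types in the values of the ribosomal protein genes was not tested. In such bulk samples, fewer cells of a type and less RNA per cell cannot be told apart.

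No ribosomal protein gene passed the test in either direction: limma called 0 of 80 at adjusted p 0.05, against 726 of 17926 genes (4.05%), of which 282 were higher and 444 lower in the outer interzone. Samples with the same replicate number also shared deviations, and a fit with that number as a block called 1626 genes (9.07%) and again 0 of the 80 members. Without adjustment, 2 members (2.5%), Rpl4 and Rpl37, had a limma p under 0.05, against 21.1% of all genes. The members formed a narrow group. Their median difference was 0.28 and the middle 50% spanned 0.13, from 0.20 to 0.33, while the middle 50% of all genes spanned 0.55 around a median of 0.10. The members were also far brighter, their median level lying 7.09 to 7.52 above that of all genes on each array. They were not compared with other genes of like brightness. The difference was above 0 for 76 members and below 0 for 4. As folds, members ran from 0.80 to 1.41, outer over intermediate.

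**Figure D1:**
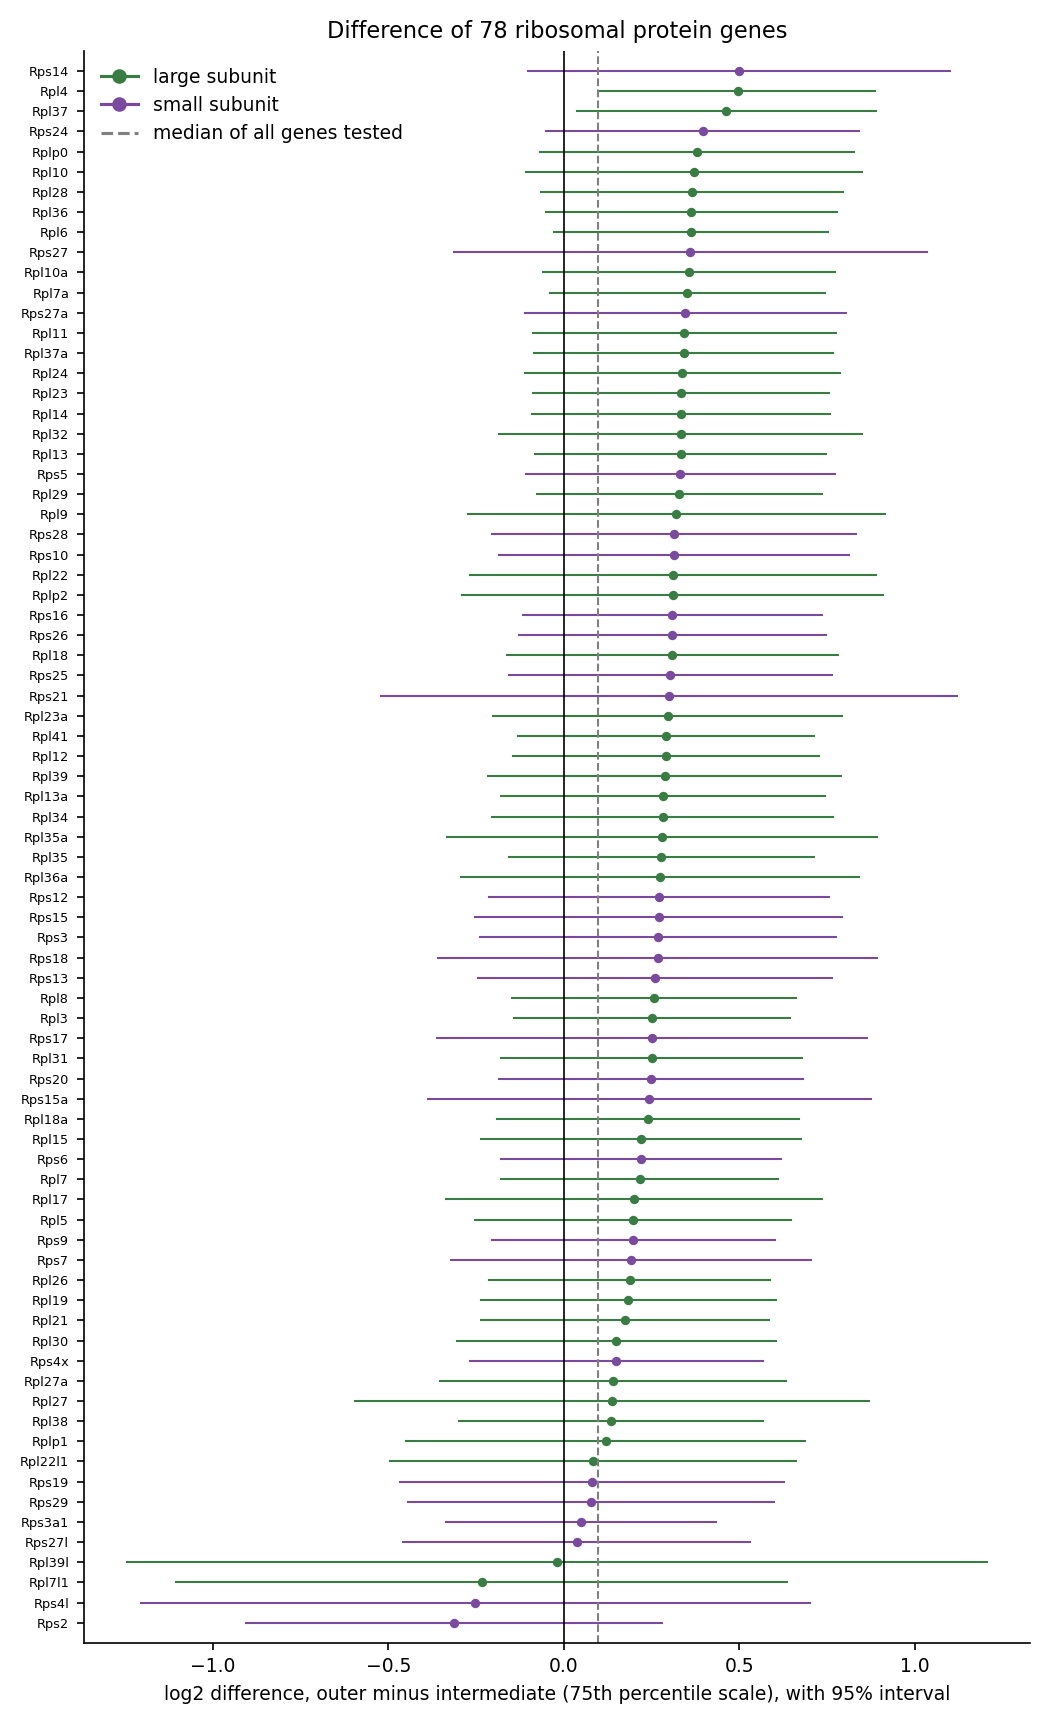
Each of 78 of the 80 tested ribosomal protein genes is a point at its log2 difference, outer minus intermediate interzone (75th percentile scale), with limma's 95% interval, green for the large and purple for the small subunit. All but 4 points lie right of 0, most between 0.20 and 0.33, and 76 of the 78 intervals drawn include 0.

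The subunits did not separate: the median difference was 0.29 over 49 large subunit genes, with 47 above 0, and 0.27 over 31 small subunit genes, with 29 above 0. The 3 arrays per group limit the precision, and a p that misses the threshold does not show that a gene was equal in both layers. The 95% intervals included 0 for 78 members and lay above 0 for 2, and for 74 members they lay within a 2-fold change in either direction. The interval reached 2-fold for Rps4l, Rpl7l1, Rpl39l, Rps21, Rps27 and Rps14. Interval widths ran from 0.77 to 2.45, with a median of 0.91.

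The members moved up and down together from array to array. Their median level was 7.93, 8.28 and 8.03 in intermediate replicates 1, 2 and 3 and 8.17, 8.32 and 8.42 in outer replicates 1, 2 and 3. The group means were 8.08 ± 0.18 (SD, n = 3) and 8.30 ± 0.12 (SD, n = 3), and the groups overlapped, since intermediate replicate 2 lay above outer replicate 1. Signal was also summed over all tested genes, each by its brightest tested probe. The members' share of this sum was 8.12%, 8.95% and 8.61% in the intermediate and 8.66%, 8.82% and 9.65% in the outer samples, which overlapped too. The spread of a member within its group had a median of 0.20 (SD). After subtracting each array's member median, the spread of a member had a median of 0.12 (SD), taken across all arrays of both groups together. These SDs are different measures, so how much of the replicate spread was shared cannot be read from them. Intermediate replicate 2 was the highest intermediate array for 79 of 80 members, and outer replicate 3 was the highest outer array for 61.

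**Figure D2:**
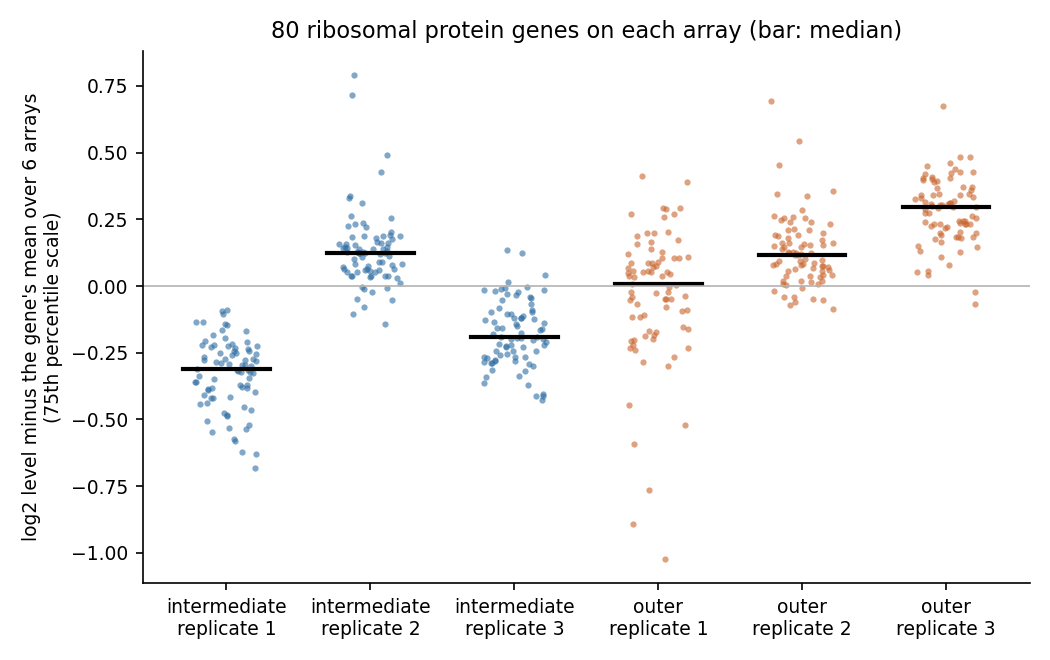
Each point is 1 of 80 ribosomal protein genes on 1 array, as its log2 level (75th percentile scale) minus that gene's mean over the 6 arrays, with the array's median as a bar. The bars stand at -0.31, 0.12 and -0.19 for intermediate replicates 1 to 3 and at 0.0065, 0.12 and 0.30 for outer replicates 1 to 3, so the arrays of a group lie apart from each other and intermediate replicate 2 lies level with outer replicate 2.

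The difference was not the same in every pair of same-numbered samples. In replicate 1 the outer sample was higher for 75 of 80 members (median 0.33), and in replicate 3 for 78 (median 0.47). In replicate 2 it was higher for 37 and lower for 43, with a median of -0.0079. Over all genes, the outer sample was higher for 57.4%, 58.2% and 59.6% of genes in pairs 1, 2 and 3. By gene, 36 members were higher in the outer sample of all 3 pairs, 40 in 2 pairs, 2 (Rpl7l1 and Rpl39l) in 1 pair, and 2 (Rps2 and Rps4l) in 0 pairs. The outer and intermediate samples did not overlap for 13 members (16.2%), all higher in the outer interzone, against 15.6% of all genes in that direction. None of the members lay wholly lower in the outer samples, against 11.4% of all genes.

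The side of 0 on which the members fell depended on how arrays were scaled. When arrays were scaled to their medians instead, which is the scale of the authors' deposited table, the member median was -0.11, with 4 above 0 and 76 below, while the median of all genes moved from 0.10 to -0.29 and the calls over all genes from 282 and 444 to 158 higher and 933 lower in the outer interzone. On both of these scales the member median stood 0.18 above that of all genes, but without the filter on dim probes it stood 0.16 below it on the 75th percentile scale. With quantile normalization it stood at -0.0050, with 35 above 0 and 45 below, and 0.018 under the median of all genes (limma called 166 genes higher and 287 lower). With normexp background correction before quantile normalization it stood at -0.0031, with 40 on each side, and 0.033 under all genes. On each of these scales limma called 0 members. The place of the ribosomal protein genes relative to all genes thus depended on the scaling and on the filter.

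**Figure D3:**
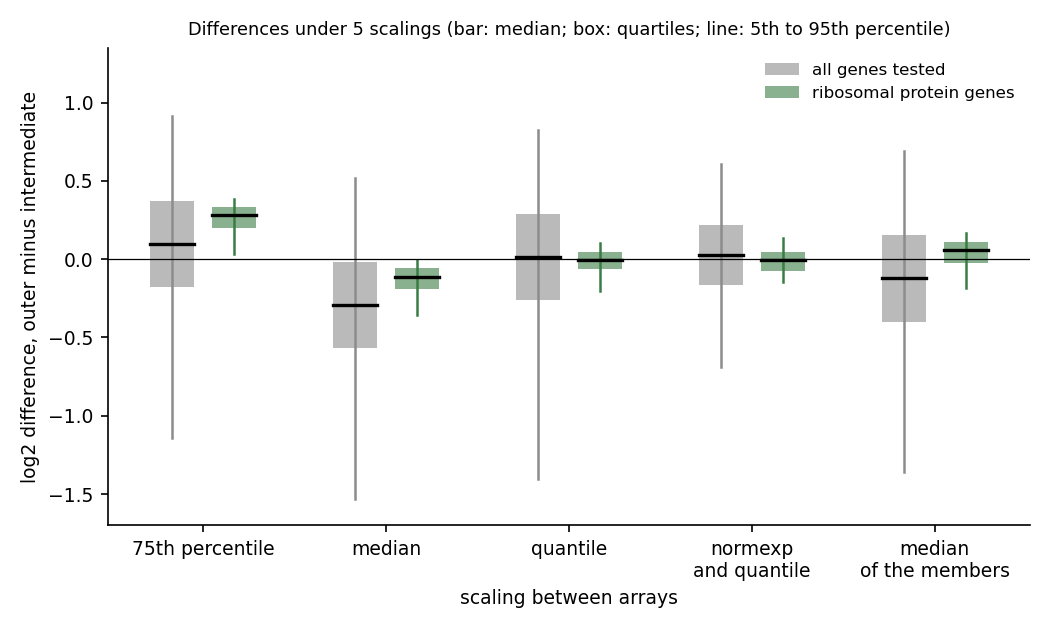
Log2 differences, outer minus intermediate interzone, are shown for all tested genes (grey) and for the 80 ribosomal protein genes (green) under 5 scalings between arrays, as median (bar), quartiles (box) and 5th to 95th percentile (line). The green box is narrower than the grey one under each scaling shown, and its median moves from 0.28 with the 75th percentile to -0.11 with the array median and -0.0050 with quantile normalization.

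Among the core proteins of the large subunit, Rpl4 and Rpl37 had the lowest adjusted p. Rpl4, a protein that lines the exit tunnel for the growing peptide, measured 7.34, 7.45 and 7.12 in intermediate replicates 1 to 3 and 7.82, 7.73 and 7.84 in outer replicates 1 to 3 (probe at chr9:64026265-64026324, mm9). All 3 outer samples lay above all 3 intermediate samples. The difference was 0.50 with SE 0.17 (95% interval 0.10 to 0.89; limma adjusted p = 0.155), and limma's adjusted p was 0.0914 with the replicate block. Rpl37, another large subunit protein, measured 9.04, 9.31 and 8.90 in the intermediate and 9.57, 9.41 and 9.66 in the outer samples (chr15:5068594-5068654). Its groups did not overlap either. The difference was 0.46 with SE 0.18 (limma adjusted p = 0.205).

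The farthest small subunit members on the upper side were Rps14 and Rps24. Rps14, which sits on the platform of the small subunit, measured 9.21, 9.76 and 9.31 in the intermediate and 9.63, 9.80 and 10.35 in the outer samples. Intermediate replicate 2 lay above outer replicate 1, so the groups overlapped. The difference of 0.50 had SE 0.25 (limma adjusted p = 0.314). Rps24, needed for maturation of the small subunit's RNA, measured 8.99, 9.34 and 8.99 against 9.51, 9.32 and 9.68. The groups overlapped through outer replicate 2, and the difference was 0.40 with SE 0.19 (limma adjusted p = 0.285).

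Rps2, a protein near the entry of the mRNA channel, lay farthest on the lower side. It measured 7.06, 7.58 and 7.29 in the intermediate and 6.56, 7.30 and 7.13 in the outer samples. The outer sample was the lower one in each of the 3 pairs, although the groups overlapped. The difference was -0.31 with SE 0.25 (95% interval -0.90 to 0.28; limma adjusted p = 0.514), and -0.096 without outer replicate 1, the dimmest array. After subtraction of each array's member median, Rps2 stood at -0.87, -0.70 and -0.74 in the intermediate and at -1.61, -1.02 and -1.29 in the outer samples, which no longer overlapped. Fitted on that scale, the difference was -0.53 (limma adjusted p = 0.210, and adjusted p = 0.111 with the replicate block). On this scale 1 member (1.25%), Rps2, had all outer samples below all intermediate samples, against 21.3% of all genes, and 3 (3.75%), Rpl14, Rpl6 and Rpl4, had them above, against 5.68%.

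The array carries a second probe for Rps2, and the sequences of both are shown because they gave opposite signs. Capitals are not used, since no part is singled out.
Rps2 used probe: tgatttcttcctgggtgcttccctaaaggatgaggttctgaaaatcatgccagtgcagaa
Rps2 second probe: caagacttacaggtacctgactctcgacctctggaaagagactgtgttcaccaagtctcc
The first is placed at chr17:24857583-24857642 and the second at chr17:42864841-42864900 (mm9, plus strand, per the deposited files), and both hold a reading frame without a stop over their 60 bases. The second probe measured 6.76, 6.86 and 6.55 in the intermediate and 7.20, 6.76 and 6.81 in the outer samples. Its outer replicate 1 was the highest of the 6 values, while the first probe's was the lowest. Its difference was 0.20 with SE 0.20 (limma adjusted p = 0.609), and the mean of both probes differed by -0.056. The files place this probe well apart from the first on the same chromosome, so it may hold signal of another locus, and the negative value for Rps2 rests on the first probe alone.

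The 5 paralogs that could be tested all lay below the members' median difference. Rps27l, the p53-responsive copy of Rps27, measured 5.23, 5.65 and 5.41 in the intermediate and 5.16, 5.66 and 5.58 in the outer samples, and its groups overlapped almost fully. Its difference was 0.036 with SE 0.21 (limma adjusted p = 0.938). Rps27 itself measured 8.07, 8.92 and 8.56 against 8.46, 9.04 and 9.12, with a difference of 0.36 and SE 0.29 (limma adjusted p = 0.510). Rps27 was higher in the outer sample of each pair, and its groups overlapped. Rpl22l1, the copy of Rpl22, differed by 0.083 with SE 0.25, and Rpl22, a large subunit protein also known for a role in T cell development, by 0.31 with SE 0.25. The intervals of Rpl22l1 (-0.50 to 0.66) and Rpl22 (-0.27 to 0.89) overlapped over most of their length. The difference between a paralog and its parent gene was not tested.

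The remaining paralogs had the widest intervals of all members. Rps4l, a copy of the X-linked Rps4x, measured 2.75, 3.94 and 3.13 in the intermediate and 2.38, 3.60 and 3.08 in the outer samples, each outer sample below its same-numbered partner. Its difference was -0.25 with SE 0.40 (limma adjusted p = 0.757), and became 0.067 without outer replicate 1 and 0.080 without intermediate replicate 2. Rps4x differed by 0.15 with SE 0.18. Rpl7l1, a relative of Rpl7, measured -0.64, 0.12 and -0.25 against -1.26, -0.01 and -0.19. Outer replicate 1, the dimmest array, was its lowest value, and without that array its difference of -0.23 (SE 0.37) became 0.15. Rpl7 differed by 0.22 with SE 0.17. Rpl39l measured -0.13, 1.27 and 0.55 against -0.47, 1.25 and 0.85, a difference of -0.020 with SE 0.52, and became 0.49 without outer replicate 1. Rpl39, its parent gene, differed by 0.29 with SE 0.21. Rpl3, whose muscle paralog was not well above background, measured 7.81, 8.11 and 7.81 against 8.17, 8.11 and 8.20. Its groups did not overlap, although the replicate 2 samples differed by less than the rounding, with a difference of 0.25 and SE 0.17 (limma adjusted p = 0.431). Rpl10, the parent gene of Rpl10l, differed by 0.37 with SE 0.20.

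The stalk of the large subunit, which recruits the translation factors, is formed by Rplp0, Rplp1 and Rplp2. Rplp0, which anchors it, measured 9.20, 9.47 and 9.01 in the intermediate and 9.50, 9.54 and 9.77 in the outer samples, without overlap, and differed by 0.38 with SE 0.19 (limma adjusted p = 0.304). Rplp2 differed by 0.31 with SE 0.25 and Rplp1 by 0.12 with SE 0.24. All 3 stalk differences were above 0 on this scale and below 0 with array-median scaling, with quantile normalization and with normexp.

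Members with known roles in signalling or disease lay within the group. Rps6, the substrate of S6 kinase, measured 7.90, 8.19 and 7.96 in the intermediate and 8.18, 8.16 and 8.37 in the outer samples. Its groups overlapped, and its difference of 0.22 (SE 0.17, limma adjusted p = 0.493) lay near the member median. Rpl5 and Rpl11, which bind Mdm2 when ribosome assembly fails, differed by 0.20 with SE 0.19 and by 0.34 with SE 0.18. Rps19, the gene most often mutated in Diamond-Blackfan anaemia, measured 6.24, 6.86 and 6.36 against 6.30, 6.79 and 6.60. Its groups overlapped, and the difference was 0.081 with SE 0.23 (limma adjusted p = 0.873).

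Members tied to skeletal patterning lay in the same range. Rpl38, shown above for its promoter, measured 8.39, 8.82 and 8.64 in the intermediate and 8.63, 8.74 and 8.88 in the outer samples. Its groups overlapped, and the difference was 0.14 with SE 0.18 (95% interval -0.30 to 0.57; limma adjusted p = 0.710). Rpl24, mutated in the Belly spot and tail mouse, measured 8.18, 8.68 and 8.28 against 8.64, 8.71 and 8.80, and differed by 0.34 with SE 0.19. Only outer replicate 1 fell within the range of its intermediate samples. Another member, Rps27a, which is made as a fusion with ubiquitin, differed by 0.35 with SE 0.19.

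Several probes served most genes: 54 of the 80 had more than 1 tested probe, 175 tested probes in all. Probes of a gene differed from each other by a median of 0.11, by over 0.3 in 7 genes, and gave opposite signs in 9. Among the latter was Rpl21, a large subunit protein, with differences from -0.31 to 0.32 over 3 probes. Its probe at -0.31 was dim, with levels of -3.01 to -1.96, and was well above background on 5 arrays. The probe at 0.32 measured -0.15 to 0.59. The probe used for Rpl21 was brighter (6.29 to 6.72) and differed by 0.18. Many pseudogenes resemble these genes, and the files place 24 probes of 14 genes on another chromosome than the gene. Those 24 had a median difference of 0.24 and the rest 0.27. The probe used was such a probe for 7 genes, among them Rpl28, Rpl3, Rpl36, Rps27, Rps29 and Rps4x, and their values may hold signal of near-identical copies. As a feature of the design, 30.9% of the member probes contained AATAAA, the polyadenylation signal, on the probe's strand, against 10.1% of all non-control probes.

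Lists of other genes of the translation machinery were also without calls, which in lists this short says little beside the 4.05% called over all genes. Differences between lists were not tested. Of 5 ribosome components with other names, 0 were called and 4 lay above 0, with a median of 0.31. Among them, Rpsa differed by 0.50, Fau by 0.46, Rack1 by 0.31 and Rpl36al by -0.026. Of 16 translation factors and other mRNAs known to begin with a pyrimidine tract, 0 were called and 12 lay above 0, with a median of 0.22. Among these, Eef1a1, the main elongation factor, differed by 0.41 (SE 0.18), Eif4b by 0.45 (SE 0.17) and Pabpc1, the poly(A) binding protein, by -0.28 (SE 0.24).

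The remaining lists had medians below that of all genes on this scale. Of 18 cytosolic initiation factors measured, 0 were called, 9 lay above 0 and the median was 0.015. Of 34 ribosome biogenesis genes, 0 were called, 20 lay above 0 and the median was 0.020, with Fbl, the nucleolar methyltransferase, at 0.33 and Ncl at -0.065. Of 13 genes of mTOR and S6 kinase control, 0 were called and the median was 0.033, with Mtor at -0.077 and Rps6kb1, an S6 kinase, at 0.10. Of 5 genes of the p53 arm of ribosome stress, 0 were called, with a median of 0.064. Of 78 mitochondrial ribosomal protein genes, which serve the separate ribosome of the mitochondrion, 0 were called, 32 lay above 0 and the median was -0.029. With the replicate block, 1 of them, Mrps11, passed as lower in the outer interzone (difference -0.63, limma adjusted p = 0.0467), against 9.07% of all genes in that fit, and this gene was singled out after its value was seen. All tested genes had a median of 0.10 on this scale. With array-median scaling the initiation factor, biogenesis, mTOR, p53 and mitochondrial lists had medians of -0.38, -0.37, -0.36, -0.33 and -0.42, the ribosomal proteins -0.11 and all genes -0.29.

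**Figure D4:**
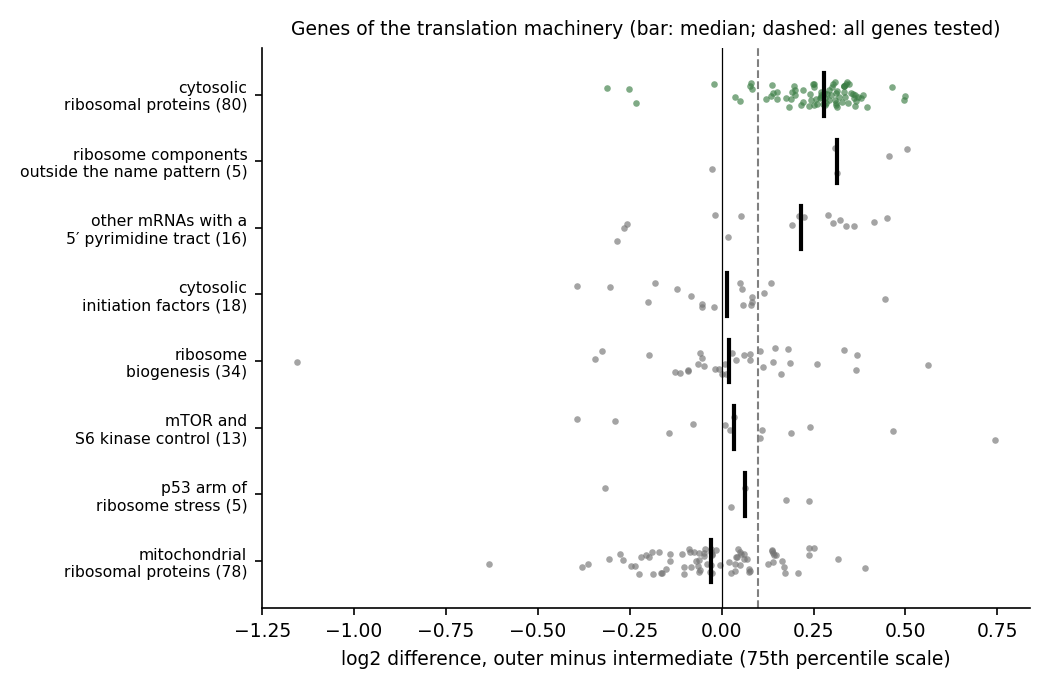
Points are genes at their log2 difference, outer minus intermediate interzone (75th percentile scale), in rows by list with the number measured, a bar at each list's median and a dashed line at the median of all genes tested (0.10). The cytosolic ribosomal proteins cluster around 0.28, while the medians of the mitochondrial ribosomal proteins (-0.029), initiation factors (0.015) and biogenesis genes (0.020) lie left of the dashed line.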

How the data were processed

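Each deposited scanner file holds the processed intensity of 1 array on a linear scale, and the software named per the file headers is Feature Extraction 10.7.3.1 by Agilent. Partek 6.11.0321 is also named, per the submitters' processing notes. The authors' deposited table holds the same intensity divided by each array's median, without log2 transformation by the authors (each column has a median of 1, and the ratio to the scanner intensity varied by at most 0.000785% within an array). Its direction of comparison is not stated.

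Processed signals were log2-transformed and the 75th percentile of the array was subtracted. Non-control spots of a probe were averaged, and probes entered the test if a whole group (3 arrays) measured them well above background. A gene was its brightest tested probe. Names were updated through RefSeq accessions (26762 of 28390 probes with one matched); positions are mm9, per the file headers, and promoters GRCm38.p6. The layers were compared in R 4.3.3 by limma 3.58.1 (lmFit, eBayes, two-sided, Benjamini-Hochberg over all genes), and the procedure was tested on simulated data. Brightness and the number of arrays limit the precision.

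The members and gene lists were chosen with earlier results of these data known, so the list as a whole has no test. Named members are the 4 farthest from the members' median difference on each side, the paralogs with their parent genes, and members with a role told as background. The labels number the replicates without saying what a number shares. After group means were removed, same-numbered samples correlated at 0.56, 0.48 and 0.37 across all genes and at 0.88, 0.81 and 0.46 across the members. Differently numbered samples correlated at -0.53 to 0.11 across all genes and at -0.82 to 0.445 across the members. The highest of these for the members, intermediate replicate 3 with outer replicate 2, lay near the 0.46 of the replicate 3 samples. The main fit left the numbers out, and the replicate block was run as an alternative. Outer replicate 1 shared slide 1 with all 3 intermediate arrays, and the other outer arrays were on slide 2. Scaling, background correction (normexp, offset 50), probe filter, probe choice, replicate block, slide and each left-out array were varied. A few genes that enter the counts are not reported here by name.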

Additional observations from a re-analysis of the deposited data

How the results depend on the processing

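Under every alternative run, limma called 0 ribosomal protein genes in either direction; of the 27 named members, none was called under any. The arrays' brightness and the 3 arrays per group limit what could be seen. The replicate block, for samples paired by number, left each difference as it was and called 831 genes higher and 795 lower in the outer interzone, against 282 and 444. It changed the call of no member. Scaling to the members' own median, with and without the block, and array-median scaling with the block were chosen after seeing the data.

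The member median of 0.28 was -0.11 with array-median scaling, with the authors' deposited values and with array-median scaling plus the replicate block, -0.0050 with quantile normalization, -0.0031 with normexp and 0.058 on the members' own median, with or without the block. Its distance of 0.18 from all genes became -0.018 with quantile normalization, -0.033 with normexp and -0.16 without a probe filter, where more dim genes enter the median of all genes. With slide as a block or slide 1 alone the member median was 0.14, resting on the dim outer replicate 1, and the distance 0.11. Leaving out 1 array at a time gave member medians of 0.17 (without intermediate replicate 1) to 0.41 (without intermediate replicate 2) and distances of 0.088 (without outer replicate 3) to 0.27 (without intermediate replicate 2).

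Over all genes, calls higher and lower in the outer interzone were 158 and 933 with array-median scaling or the authors' values, 166 and 287 with quantile normalization, 0 and 0 without a filter (4243 at unadjusted p under 0.05), 247 and 212 with signal required on 6 arrays, 483 and 730 with the slide block, 522 and 798 on slide 1 alone, 158 and 560 on the members' median, 429 and 1057 there with the block, and 392 and 2219 with array-median scaling and the block. Without 1 array they ran from 46 to 487 higher and from 20 to 615 lower, lowest without intermediate replicate 3 and highest without outer replicate 2.

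Differences of named members that changed sign were, with array-median scaling, with the authors' values and with array-median scaling plus the block, Rpl10 -0.019, Rpl11 -0.048, Rpl22 -0.080, Rpl22l1 -0.31, Rpl24 -0.053, Rpl3 -0.14, Rpl38 -0.26, Rpl39 -0.10, Rpl5 -0.19, Rpl7 -0.18, Rplp0 -0.012, Rplp1 -0.27, Rplp2 -0.081, Rps19 -0.31, Rps27 -0.032, Rps27a -0.045, Rps27l -0.35, Rps4x -0.24 and Rps6 -0.17. With quantile normalization they were Rpl10 -0.026, Rpl11 -0.0062, Rpl22l1 -0.096, Rpl38 -0.17, Rpl7 -0.066, Rplp0 -0.016, Rplp1 -0.17, Rplp2 -0.045, Rps19 -0.095, Rps24 -0.0032, Rps27a -0.0089, Rps27l -0.073, Rps4x -0.043 and Rps6 -0.038. With normexp they were Rpl22l1 -0.027, Rpl38 -0.048, Rpl39l 0.020, Rpl7 -0.14, Rplp0 -0.0063, Rplp1 -0.13, Rplp2 -0.040, Rps19 -0.12, Rps27l -0.11, Rps4x -0.032 and Rps6 -0.086. With the slide block or slide 1 alone they were Rpl22 -0.0053, Rpl22l1 -0.22, Rplp1 -0.24, Rplp2 -0.052, Rps19 -0.18, Rps27 -0.054 and Rps27l -0.27. On the members' median, with or without the block, they were Rpl22l1 -0.14, Rpl38 -0.086, Rpl5 -0.023, Rpl7 -0.0049, Rplp1 -0.10, Rps19 -0.14, Rps27l -0.18, Rps4x -0.071 and Rps6 -0.00026. Over the 6 fits without 1 array, the members that changed sign in any of them ranged from -0.10 to 0.26 (Rpl22l1), -0.37 to 0.49 (Rpl39l), -0.47 to 0.15 (Rpl7l1), -0.048 to 0.30 (Rplp1), -0.044 to 0.27 (Rps19), -0.065 to 0.19 (Rps27l) and -0.54 to 0.080 (Rps4l). Why the signs changed was not tested.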
